A study of Rattus norvegicus with 2 samples.

Results

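Visceral smooth muscle cells were taken from single-cell RNA counts of the wild-type (WT) fetal rat colon at E19.5, late in gestation. There were 2 libraries, one from the control group (replicate 1) and one from the maternal obesity group (replicate 2), whose library name starts with HFD. The labels used here do not give the strain, the diet, the number or sex of the fetuses or the stretch of colon, so pooling of fetuses is unknown. Each transcript was tagged with a unique molecular identifier (UMI). A barcode counted as a cell with 500 genes or more and no more than 20% of its UMIs mitochondrial. The members were chosen by their own expression of muscle genes, and a cell was one when Actg2, Tagln, Cnn1 and Myh11 together made up at least 100 of every 10000 UMIs, all 4 were present, and fewer than 4 of the epithelial genes Epcam, Cldn7, Cldn4, Cldn3, Elf3, Vil1 and Lgals4 had a UMI. This gave 1748 of 14115 cells (12.4%). In control there were 890 of 6879 (12.9%, exact 95% binomial interval 12.2 to 13.8), and in maternal obesity 858 of 7236 (11.9%, 11.1 to 12.6). The order turns at a limit of 50 per 10000 (13.8% and 14.2%) and with fewer than 2 epithelial genes (5.79% and 6.66%).

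In the gut wall, smooth muscle forms the circular and longitudinal layers that move the contents along. Calcium entering through voltage-gated channels or released from stores binds calmodulin and activates myosin light chain kinase, which starts cross-bridge cycling on smooth muscle actin. The transcription factor SRF and its partner myocardin drive the contractile genes, while interstitial cells of Cajal set the rhythm. In the fetus this layer arises from mesenchyme that answers to Hedgehog and BMP signals from the epithelium.

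With 1 library in each group there is no replicate of a condition and no test. Levels are CPM, the UMIs of a gene scaled to 1000000 UMIs summed over the cells of a library. A ratio of levels carries an exact 95% interval, given in brackets, which covers counting error only. Where a sentence does not state the levels, they follow the interval, control first. What separates the 2 libraries may be the maternal group, the litter or the preparation, and these cannot be told apart. A sum over cells also does not separate fewer cells of one kind from less RNA per cell.

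The members held 10404544 UMIs in control and 10988405 in maternal obesity, with medians of 9880.5 and 11161.5 UMIs a cell. Mitochondrial UMIs had medians of 2.002% and 2.72%. Haemoglobin genes took 0.736% and 1.21% of the members' UMIs, and 14 member barcodes in each library held at least 5% haemoglobin. The median share per member cell was 0.011% in control and 0.125% in maternal obesity. The libraries shared 130 barcode sequences, 2 of them among members. Scrublet, a doublet caller, marked 1 member in control and 11 in maternal obesity, and none were removed. The cells just inside the limit (100 to 120 per 10000) numbered 18 and 43, with Tagln at 5884 and 5183 CPM. Those just outside (80 to 100) numbered 19 and 62, with Tagln at 4844 and 4299. The epithelial clause left out 145 and 50 barcodes that met the other limits. They stayed among the other cells used for comparison below.

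The label was checked against genes that the rule did not use. Desmin (Des), the intermediate filament of muscle, stood at 653 CPM in control members and 576 in maternal obesity, against 61.4 and 57.2 in all other cells that passed. Tpm2, a tropomyosin that lies along the actin filament, stood at 4101 and 2768, against 131 and 92.9. Acta2, the smooth muscle actin shared with blood vessels, stood at 14433 and 12278, against 459 and 414. The label holds for most members. Small sets of members carried immune, epithelial or neuronal genes as well, as described with the clusters. The rule chose the cells by their expression, so every gene of members against other cells is a description with no test.

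The 20 genes with the largest fold of members over other cells included Actg2, Tagln, Cnn1 and Myh11, which chose the cells. Contractile genes outside the rule were Acta2, Tpm2, Myl9, Mylk and the actin nucleator Lmod1. Others have a known role in muscle, such as Hspb7, a small heat-shock protein, Asb2, a ubiquitin ligase subunit that targets filamins, Lims2, an adapter of integrin adhesions, and Kcnd3, a potassium channel. The neurokinin receptor gene Tacr2 stood at 142 and 119 in members, against 3.69 and 1.3 in other cells. The cytokine gene Il17b stood at 521 and 441, against 12.5 and 5.43, and the calmodulin-binding peptide gene Pcp4 at 1561 and 1117, against 41.8 and 22.8. Aldh1a1, which makes retinoic acid, stood at 742 and 431. Actc1, the cardiac actin, stood at 395 and 234, against 9.38 and 2.44. Of 12113 genes with at least 20 member UMIs, 2471 (20.4%) were at least 1.5-fold higher in members than in other cells in both libraries, and 1898 (15.7%) were as much lower.

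**Figure D1:**
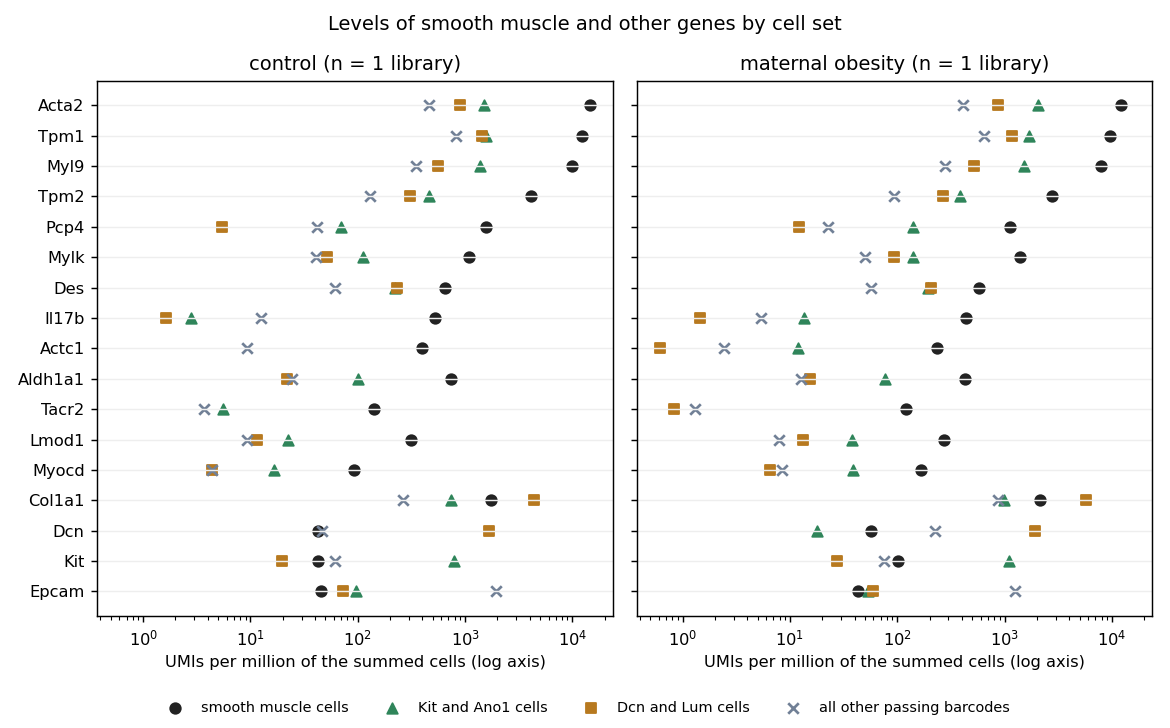
Levels of 17 genes in 4 sets of cells, in CPM on a log axis, control on the left and maternal obesity on the right, 1 library each. Points at 0 are not drawn. Contractile genes lie to the right in the members, Kit in the cells with Kit and Ano1, and Dcn and Col1a1 in the cells with Dcn and Lum.

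SRF binds a short element called the CArG box, a pair of C, a run of A or T and a pair of G, that reads alike on both strands. It was looked for in the RefSeq promoters of build GRCr8, which reach from 250 bases before to 50 after a gene's start. It was found in 548 of 33469 promoters (1.64%). Of the 20 leading genes, 15 had an entry, with 16 promoters, and 2 genes held it (12.5% of promoters). Of 51 symbols in the rule, contractile and cytoskeleton lists, 41 had an entry, and Cnn2, Fhl1, Fhl2 and Ldb3 held it, in 5 of 46 promoters (10.9%). A match is a description of the letters and not a measured site, and a window with no match says nothing of SRF. The 2 promoters of leading genes are shown because both genes stand out in these cells, with the element in capitals. Each is printed up to the gene's start, or to the end of the element where that lies after the start, which gives 262 bases for Actc1 and 250 for Fbxl22. The Actc1 stretch (chr3:121271816-121272077, minus strand, GRCr8) has the element starting at base 3 counted from the gene's start, and the Fbxl22 stretch (chr8:75971715-75971964, minus strand) has it from base -204.
Actc1: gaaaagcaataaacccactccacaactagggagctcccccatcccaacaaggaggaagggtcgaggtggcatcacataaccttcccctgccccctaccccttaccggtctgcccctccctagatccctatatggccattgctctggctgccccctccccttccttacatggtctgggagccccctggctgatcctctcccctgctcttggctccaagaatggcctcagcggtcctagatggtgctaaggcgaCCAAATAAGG
Fbxl22: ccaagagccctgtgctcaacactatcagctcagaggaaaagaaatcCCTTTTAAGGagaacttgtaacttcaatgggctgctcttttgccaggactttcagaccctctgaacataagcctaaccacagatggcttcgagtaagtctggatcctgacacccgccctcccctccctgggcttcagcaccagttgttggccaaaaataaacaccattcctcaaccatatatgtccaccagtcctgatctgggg
Actc1 was 1.69-fold lower (1.61 to 1.77) in maternal obesity and Fbxl22, an F-box protein of muscle, was 1.55-fold lower (1.47 to 1.64), from 316 to 204. The sum of the other cells, with the barcodes left out by the epithelial clause in it, had log2 ratios of -1.94 and -1.51.

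Cells with UMIs of both Kit and Ano1, or of both Dcn and Lum, and under 100 per 10000 of the rule genes served as comparison sets of Cajal-type and fibroblast-type cells (39 and 111, and 228 and 1013 cells in control and maternal obesity). Des set members apart less from these sets than from all other cells. Its median per 10000 UMIs was 5.01 and 4.43 in members, 1.90 and 1.31 with Kit and Ano1, and 1.54 and 1.37 with Dcn and Lum. For Tpm2 these medians were 38.1 and 24.0, 4.14 and 3.24, and 2.56 and 2.20. The members spanned a wide range of contractile gene content, and the range differed between the libraries. The summed rule genes had a median of 529 per 10000 UMIs in control and 367 in maternal obesity. In control 87 cells (9.78%) had 100 to 200, 168 (18.9%) had 200 to 400, 548 (61.6%) had 400 to 800 and 87 (9.78%) had 800 or more. In maternal obesity these were 192 (22.4%), 275 (32.1%), 351 (40.9%) and 40 (4.66%). The cells of maternal obesity were spread more to the low end of the scale. The rule genes define this scale, so the spread is a description. The median depth in the lowest range was 6892 UMIs in control and 9387 in maternal obesity.

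**Figure D2:**
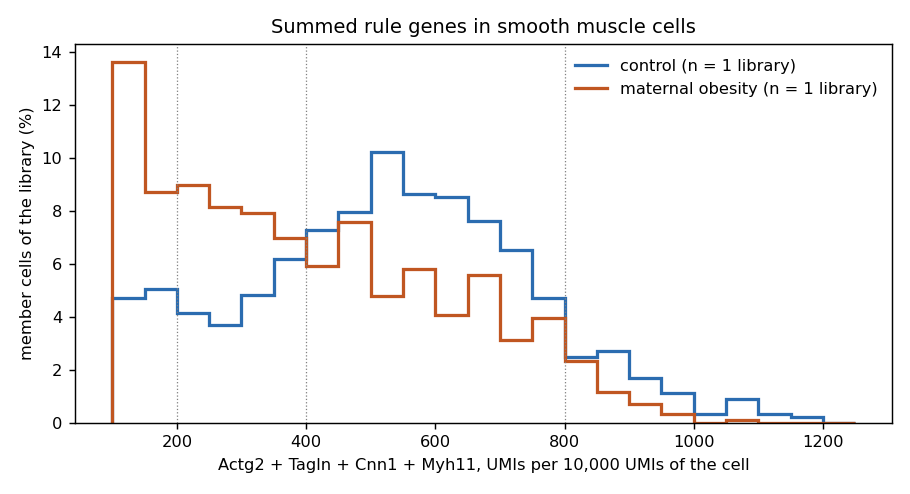
Share of member cells (percent of the library's members) by summed Actg2, Tagln, Cnn1 and Myh11 per 10000 UMIs, in steps of 50, 1 library each, with dotted lines at 200, 400 and 800. Control has its highest step at 500 to 550, and maternal obesity at 100 to 150.

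Genes that went up along this scale, in both libraries, included some genes of the sarcomere. Actc1 stood at 25.8, 223, 429 and 726 CPM in the 4 ranges of control and at 7.22, 116, 382 and 664 in those of maternal obesity. The troponin Tnnc1 stood at 21.5, 96.7, 289.8 and 645 in control and 44.3, 75.9, 318 and 664 in maternal obesity. Creatine kinase Ckm stood at 0, 3.26, 34.2 and 65.3 in control and 0.481, 2.48, 25 and 74.6 in maternal obesity. The sarcomeric M-band gene Myom2 (from 0 to 18.5 in control), the membrane protein gene Popdc2 (1.43 to 83.8), the small heat-shock gene Hspb8 (17.2 to 421) and the LIM gene Pdlim3 (37.2 to 569) did the same. The myogenic regulators Myod1, Myf5, Myf6 and Pax7, which set up skeletal muscle, had 0 UMIs in the members of both libraries, which allows up to 3 UMIs a library by counting.

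Genes that went down along it included Kit and matrix genes. Kit, the receptor that marks Cajal cells, stood at 225, 85.9, 17.3 and 5.84 in control and at 265, 121, 27.1 and 7.22 in maternal obesity. Elastin (Eln) stood at 94.5, 23.9, 4.39 and 1.95 and at 148, 56.6, 6.98 and 2.41. Bdnf, a neurotrophin, stood at 55.8, 30.4, 5.12 and 0.974 and 60.6, 35.3, 8.62 and 0, and the matrix gene Thbs2 at 53, 9.24, 0.877 and 0 and 60.6, 16, 1.64 and 0. Id3, an inhibitor of differentiation factors, stood at 1834, 1036, 399.7 and 181 and 1354, 878, 312 and 111. Vim, the mesenchymal intermediate filament, stood at 2553, 1943, 1257 and 893 and 2075, 1623, 1069.9 and 703. By contrast Myocd, the myocardin gene, was near level: 80.2, 90.2, 96.4 and 83.8 in control and 155, 169, 169.7 and 123 in maternal obesity. Foxf1, a Hedgehog target of gut mesenchyme, was also near level, with 629, 693, 761 and 694 in control and 777, 918, 849 and 691 in maternal obesity.

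**Figure D3:**
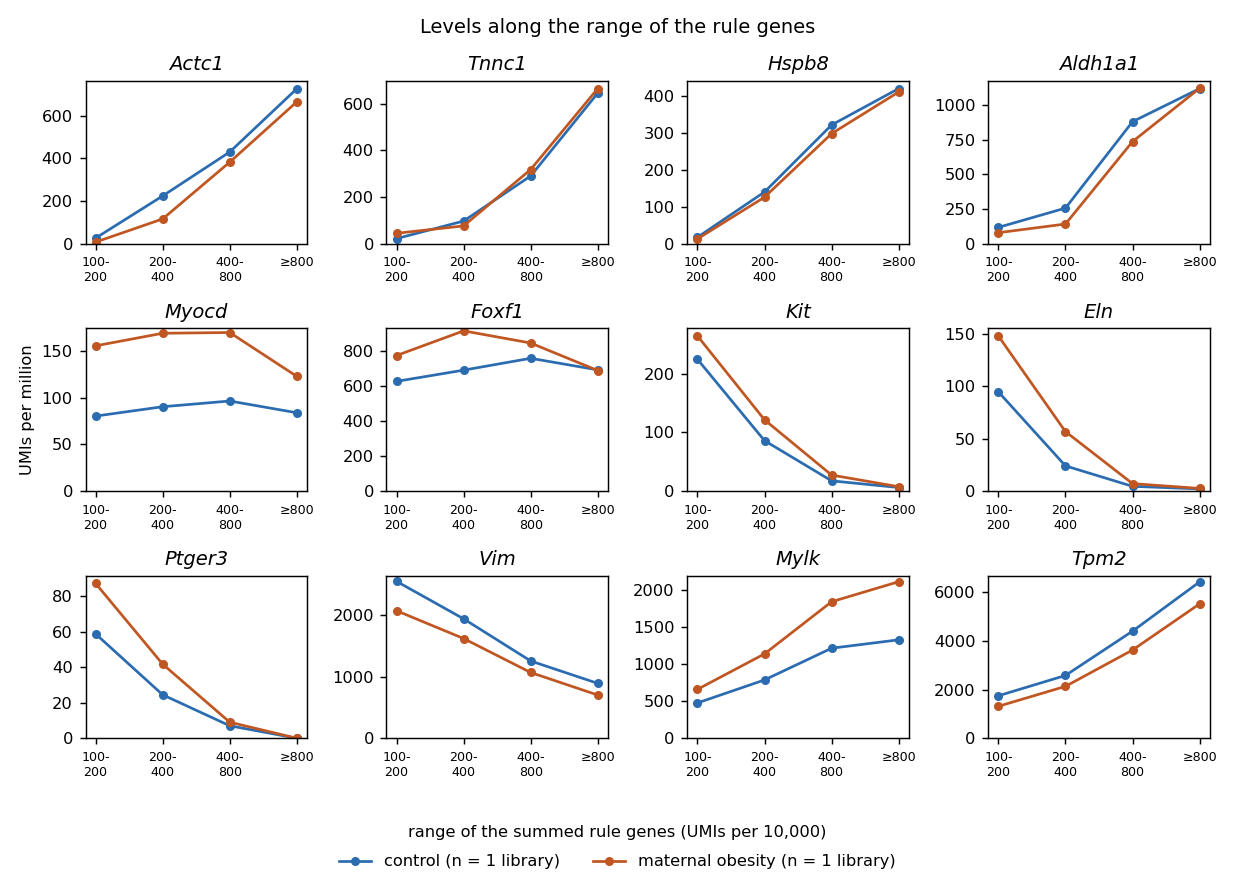
Levels of 12 genes, in CPM, in the 4 ranges of the summed rule genes, for 1 control and 1 maternal obesity library. Actc1, Tnnc1, Hspb8 and Aldh1a1 climb along the scale, Kit, Eln, Ptger3 and Vim descend, and Myocd stays close to level and is higher in maternal obesity in each range.

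Because the libraries differ along this scale, most differences below are given for all members and by cluster. The members were clustered with both libraries together, without the 4 rule genes, the haemoglobin genes of the Hba, Hbb, Hbe1, Hbz and Hbg names or the mitochondrially encoded genes. There were 9 clusters, numbered only. Clusters S1, S2, S3, S4, S6 and S8 had at least 30 cells in each library and were not led by epithelial genes. They held 120 and 68, 117 and 42, 330 and 223, 127 and 201, 34 and 87, and 92 and 178 cells in control and maternal obesity. S0 (15 and 4 cells) was led by immune genes, S5 (51 and 45) by epithelial genes at a median of 1488 UMIs, and S7 (4 and 10) by neuronal genes. S3 was led by red cell genes, among them Ahsp, Alas2 and haemoglobin genes, and held 2.52% haemoglobin UMIs, against at most 0.769% in any other cluster. A single cell held 47.7% of the Ahsp UMIs of S3, and a single cell 18.3% of those of Alas2. Without the 14 barcodes of each library at or above 5% haemoglobin, 1590 genes were higher and 266 lower, beside 1561 and 277 with them. The genes that define clusters differ between the libraries, so cluster sizes are not compared. Cells of one library are not replicates, whatever their cluster.

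Among 9582 genes with at least 100 UMIs, 1561 (16.3%) were at least 1.5-fold higher in maternal obesity and 277 (2.89%) at least 1.5-fold lower. The median gene lay 0.11 above 0 on the log2 scale. With TMM scaling (the trimmed mean of M-values of edgeR), the median was -0.04 and the counts 1010 and 573, so the share of higher calls went from 84.9% to 63.8%. TMM lowers every log2 ratio by the same 0.15, so any log2 ratio or list median between 0 and 0.15 changes sign. Of the 1561 genes, 955 were higher in 6 of 6 clusters, against 1741 (18.2%) of all genes. Of the 277, 131 were lower in 6 of 6, against 872 (9.10%) of all genes. The called genes were chosen on the same counts that the clusters split, so their higher shares follow from the choice and are a description only.

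The most abundant genes of the thin filament had lower levels in maternal obesity, while Myh11, Mylk and Cald1 had higher ones. Actg2, the actin of visceral muscle, stood at 25324 CPM in control and 16993 in maternal obesity, 1.49-fold lower (1.48 to 1.5). The actin-binding genes Tagln and Cnn1 were 1.26-fold lower (1.26 to 1.27, 17602 and 13917 CPM) and 1.49-fold lower (1.47 to 1.5, 7375 and 4963 CPM), and the tropomyosin Tpm2 was 1.48-fold lower (1.46 to 1.5). Each was lower in 6 of 6 clusters. Actg2, Tagln, Cnn1 and Myh11 chose the members, and the other cells are those that did not meet the rule. The ratios of these rule genes between the libraries, in members, clusters or other cells, are therefore descriptions and lend each other no support. Actg2, Tagln and Cnn1 sat lower also in the sum of the other cells, with log2 ratios of -1.54, -0.70 and -1.14. That sum holds the 145 and 50 barcodes left out by the epithelial clause, whose part in it was not tested. The share of other cells with a UMI went the other way. It was 22.6% and 28.2% for Actg2, 23.3% and 35.5% for Tagln, and 13.4% and 17.9% for Cnn1.

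Acta2 was 1.18-fold lower (1.17 to 1.18), Tpm1 was 1.29-fold lower (1.28 to 1.3, 12399 and 9627 CPM) and the regulatory light chain Myl9 was 1.25-fold lower (1.24 to 1.27, 9844 and 7850.1 CPM), each lower in 6 of 6 clusters. Within clusters the Acta2 difference was small, at log2 -0.25 to -0.02. The other way, Myh11, the smooth muscle myosin heavy chain, went from 4409 to 5549, 1.26-fold higher (1.24 to 1.27). It was higher in 6 of 6 clusters, at log2 0.26 to 0.73. Mylk, the light chain kinase, was 1.27-fold higher (1.24 to 1.3, 1099 and 1394 CPM), and caldesmon (Cald1), which holds myosin off actin, was 1.34-fold higher (1.3 to 1.38, 664 and 890.5 CPM). Both were higher in 6 of 6 clusters.

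With 4 ranges of the scale weighted equally, the log2 ratio of Acta2 went from -0.23 to -0.01 and that of Mylk from 0.34 to 0.57. The rule genes set this scale, so their own values under it are not given. Of the 19 contractile genes outside the rule with at least 20 UMIs, 1 was at least 1.5-fold higher and 0 lower, with a median log2 of 0.12. All 12113 genes with at least 20 UMIs had a median of 0.15, with 20.7% higher and 4.65% lower, so 1 of 19 sits under that background.

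The cytoskeletal and dense plaque genes anchor actin to the membrane. Of 27, 3 were higher and 1 was lower, against 20.7% and 4.65% of all genes, at a median log2 of 0.00. The actin crosslinker Flna went from 1558 to 2064, 1.33-fold higher (1.3 to 1.35) and vinculin (Vcl) from 472 to 649, 1.37-fold higher (1.33 to 1.43). The adhesion adapter Lpp was 1.6-fold higher (1.41 to 1.8, 41.5 and 66.3 CPM), and the LIM protein Fhl2 was 1.69-fold higher (1.44 to 1.98, 23.2 and 39 CPM). These were higher in 6 of 6 clusters. On the lower side, Csrp1, a LIM protein of actin bundles, was 1.31-fold lower (1.28 to 1.33, 1755 and 1345 CPM) and Hspb7 was 1.55-fold lower (1.47 to 1.64, 306 and 197 CPM), each lower in 6 of 6. Desmin was 1.13-fold lower (1.1 to 1.17) but was higher in 2 and lower in 4 clusters.

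**Figure D4:**
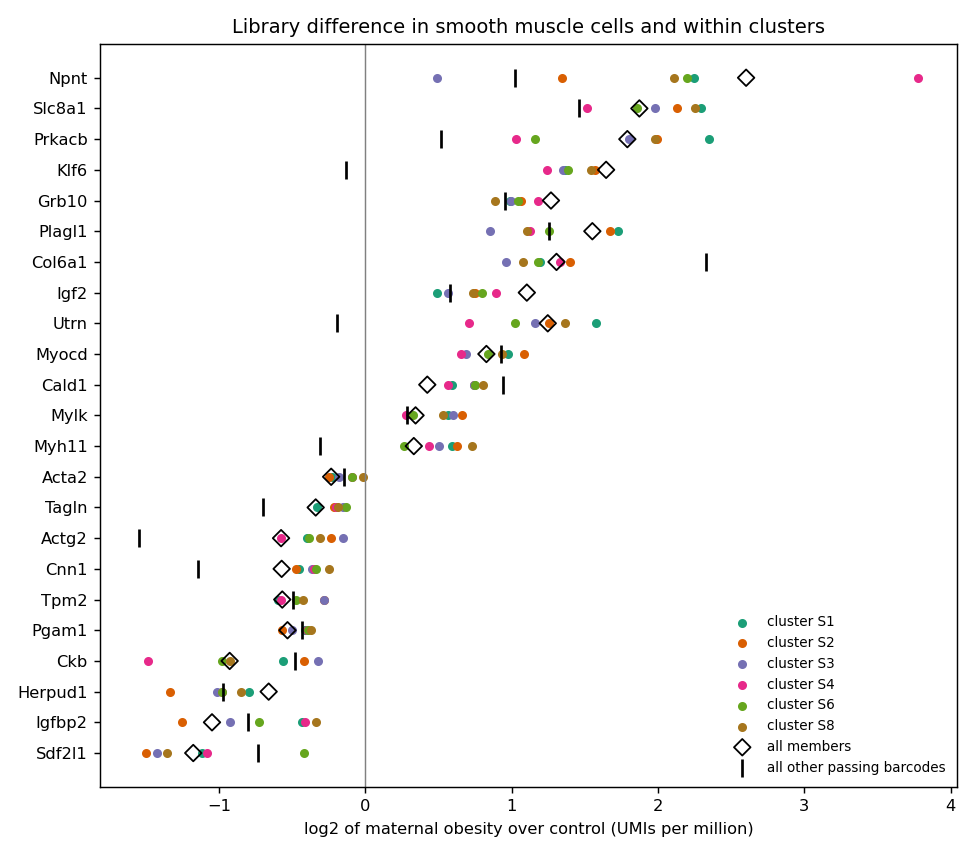
Log2 ratio of maternal obesity over control for 23 genes in all members (open diamond), in each of 6 clusters (coloured points) and in all other cells that passed (vertical tick), from UMIs summed per library, 1 library a group. The genes from Npnt down to Myh11 are higher in all 6 clusters and those from Acta2 down are lower in all 6.

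Among transcription factors, the myocardin gene Myocd stood at 92.9 and 165 CPM, 1.78-fold higher (1.64 to 1.92), and was higher in 6 of 6 clusters. Other cells showed a log2 ratio of 0.93 for it, close to 0.83 in members. The SRF gene itself was 1.13-fold higher (1.06 to 1.22, 137 and 155 CPM) and Foxf1 1.16-fold higher (1.13 to 1.2, 734 and 852 CPM). The gut mesenchyme homeobox gene Nkx2-3 was 1.61-fold higher (1.36 to 1.9, 21.6 and 34.8 CPM), Mef2c, a MADS-box factor of muscle, 2.41-fold higher (1.71 to 3.43, 4.61 and 11.1 CPM), and Meis1, a homeobox cofactor, 1.5-fold higher (1.33 to 1.7, 40.8 and 61.4 CPM), each in 6 of 6 clusters. Id2, which blocks basic helix-loop-helix factors, went from 89 to 176, 1.98-fold higher (1.83 to 2.14). Klf5, found in both epithelium and dividing muscle, was 1.56-fold lower (1.24 to 1.97). It stood at 416 and 248 in other cells and at 18.2 and 11.6 in members. Of 35 measured factors 12 were higher and 1 lower, against 20.7% and 4.65% of all genes, with a median log2 of 0.36, against 0.15 over all genes. The same genes had a median of 0.49 in other cells, 0.17 in the cells with Dcn and Lum and -0.08 in those with Kit and Ano1.

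Several genes that move calcium had higher levels. The sodium-calcium exchanger Slc8a1 stood at 8.36 and 30.8, 3.68-fold higher (2.9 to 4.71), and was higher in 6 of 6 clusters at log2 1.52 to 2.30. The plasma membrane calcium pumps Atp2b1 and Atp2b4 were 1.83-fold higher (1.61 to 2.08, 36.3 and 66.4 CPM) and 1.38-fold higher (1.31 to 1.47, 183 and 253 CPM), and the store pump Atp2a2 was 1.27-fold higher (1.18 to 1.36, 141 and 179 CPM). All were higher in 6 of 6 clusters. In other cells the log2 ratio of Slc8a1 was 1.46.

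Among channels that release stored calcium, the ryanodine receptor Ryr3 was 2.05-fold higher (1.5 to 2.81, 5.96 and 12.2 CPM) and the inositol trisphosphate receptor Itpr1 1.75-fold higher (1.47 to 2.09, 19.51 and 34.1 CPM), both in 6 of 6 clusters, and Ryr2 was 1.18-fold higher (0.832 to 1.69, 5.77 and 6.83 CPM), an interval that includes 1. The L-type channel gene Cacna1c, the main entry route of calcium in visceral muscle, went from 20.2 to 31.2, 1.55-fold higher (1.3 to 1.85), and Cacna1d was 2.01-fold higher (1.57 to 2.59, 9.23 and 18.6 CPM). Phospholamban (Pln), the brake on the store pump, was 1.52-fold lower (1.36 to 1.7, 75.3 and 49.6 CPM), and lower in 5 of 6 clusters. The potassium channels Kcnj8 and Kcnmb1 were 1.57-fold lower (1.37 to 1.8, 51.2 and 32.7 CPM) and 1.5-fold lower (1.31 to 1.72, 49.1 and 32.8 CPM). Kcnk3, a background potassium channel, was 1.5-fold higher (1.38 to 1.63, 86.7 and 130.2 CPM). Of 39 channels and pumps 13 were higher and 3 lower, against 20.7% and 4.65% of all genes. Their median log2 was 0.27 in members and 0.63 in other cells. It was 0.55 in the cells with Dcn and Lum and -0.03 in those with Kit and Ano1.

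In contraction signalling 7 of 32 genes were higher and 1 lower, near the 20.7% and 4.65% of all genes. Rhoa, a small GTPase whose kinases inhibit the light chain phosphatase, was 1.57-fold higher (1.39 to 1.78, 39.7 and 62.2 CPM), and its exchange factor Arhgef12 was 1.77-fold higher (1.42 to 2.21, 12.5 and 22.1 CPM). Those kinases, Rock1 and Rock2, were 1.25-fold higher (1.14 to 1.38, 77 and 96.6 CPM) and 1.42-fold higher (1.24 to 1.63, 35 and 49.7 CPM). All 4 were higher in 6 of 6 clusters. Pde5a, which breaks down cyclic GMP, was 1.57-fold higher (1.39 to 1.79, 38.3 and 60.3 CPM). Ppp1r14a, the protein that inhibits the phosphatase, was 1.27-fold lower (1.19 to 1.35, 195 and 154 CPM) and lower in 6 of 6. Prkacb, a catalytic subunit of protein kinase A, was outside the list and went from 7.88 to 27.4, 3.48-fold higher (2.71 to 4.49), in 6 of 6 clusters, against a log2 ratio of 0.52 in other cells.

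Of 34 receptors for transmitters and hormones 10 were higher and 4 lower, against 20.7% and 4.65% of all genes. The cholecystokinin receptor Cckar stood at 25.5 in control and 6.37 in maternal obesity, 3.998-fold lower (3.06 to 5.28), and was lower in 5 of 6 clusters. It stood at 0.707 and 0.226 in other cells. Its counts were 265 and 70 UMIs.

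The muscarinic receptors Chrm2 and Chrm3, which receive acetylcholine, were 1.3-fold higher (1.12 to 1.51, 30.2 and 39.2 CPM) and 1.65-fold higher (1.17 to 2.35, 5.19 and 8.55 CPM). The endothelin receptor Ednrb was 1.48-fold higher (1.39 to 1.57, 173 and 256 CPM), the prostaglandin receptor Ptger3 2.66-fold higher (2.18 to 3.26, 12.9 and 34.2 CPM) and the angiotensin receptor Agtr2 3.16-fold higher (2.12 to 4.81, 3.17 and 10.01 CPM). Ptger3 followed the scale, from 58.7 in the lowest range of control to 0 in the highest, and was higher in 3 of 6 clusters. The receptors for insulin and insulin-like growth factor, Insr and Igf1r, were 1.64-fold higher (1.35 to 1.99, 16.4 and 26.9 CPM) and 1.65-fold higher (1.38 to 1.98, 19.1 and 31.6 CPM), each in 6 of 6 clusters. Tacr2 was 1.19-fold lower (1.11 to 1.28) and Pdgfra, a receptor that fibroblasts carry, 4.32-fold higher (2.73 to 7.12), from 23 to 105 UMIs.

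Of 39 basement membrane and elastic matrix genes 18 were higher and 1 lower, against 20.7% and 4.65% of all genes, with a median log2 of 0.53. Nephronectin (Npnt), a matrix ligand of an integrin, stood at 4.71 and 28.8, 6.13-fold higher (4.52 to 8.45), and its receptor gene Itga8 was 3.54-fold higher (2.66 to 4.78, 5.86 and 20.7 CPM). Both were higher in 6 of 6 clusters. Elastin went from 13.6 to 49.8, 3.65-fold higher (3.03 to 4.42). The crosslinking oxidase Lox was 3.84-fold higher (2.61 to 5.81, 3.17 and 12.2 CPM). The fibulin Fbln5, which helps elastic fibres form, was 2.81-fold higher (2.33 to 3.41, 14.2 and 39.95 CPM). Elastin was a leading gene of cluster S8, at 185 CPM against 7.91 in the other members. The log2 ratios of Eln, Lox and Fbln5 were 1.86, 1.93 and 1.49 in all members. Under 16 other settings each stayed above 0, with lowest values of 0.78, 1.18 and 0.95. The laminin chains Lamb1 and Lamc1, parts of the basement membrane around each fibre, were 1.9-fold higher (1.7 to 2.11, 49.7 and 94.2 CPM) and 1.72-fold higher (1.58 to 1.87, 77.9 and 134 CPM). Fibronectin (Fn1) was 1.44-fold higher (1.38 to 1.5, 359.7 and 519 CPM), in 6 of 6 clusters. The microfibril collagen Col6a1 went from 133 to 329, 2.47-fold higher (2.32 to 2.63), also in 6 of 6.

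Fibroblast genes were higher in maternal obesity in the sum of the other cells too, where cells with Dcn and Lum numbered 228 and 1013. The same matrix genes had a median log2 of 1.07 in other cells, where Fn1 stood at log2 1.48 and Col6a1 at 2.33. Their median was 0.36 in the cells with Dcn and Lum and 0.17 in those with Kit and Ano1. Of 19 fibrillar collagen and fibroblast genes 7 were higher and 1 lower in members, against 20.7% and 4.65% of all genes. Their median log2 was 0.39 in members and 1.67 in other cells. It was 0.26 in the cells with Dcn and Lum and 0.33 in those with Kit and Ano1. Col1a1, the main fibrillar collagen chain, stood at 1726 and 2122 CPM in members. The summed level of 8 fibroblast markers was 1879 and 2324 CPM in members, 372 and 1405 in other cells and 7938 and 9972 in the cells with Dcn and Lum. All 8 had UMIs in members of both libraries, among them Dcn at 42.8 and 57. The part of free RNA from fibroblasts in these ratios was not tested.

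On the membrane side of these contacts, of 32 integrins and costamere genes 8 were higher and 0 lower, against 20.7% and 4.65% of all genes, at a median log2 of 0.11, against 0.15 over all genes. Utrophin (Utrn), which links actin to the dystroglycan complex, was 2.38-fold higher (1.9998 to 2.84, 17.7 and 42 CPM) and dystroglycan (Dag1) 1.95-fold higher (1.69 to 2.26, 26.8 and 52.3 CPM), in 6 of 6 clusters. In other cells Utrn had a log2 ratio of -0.19 and Dag1 of 0.09. Itga9, another integrin alpha chain, was 1.8-fold higher (1.53 to 2.13, 21 and 37.8 CPM) and the collagen receptor Ddr2 1.77-fold higher (1.54 to 2.04, 29.7 and 52.7 CPM). The caveolar genes Cavin2 and Cavin3 were 1.41-fold lower (1.35 to 1.48, 409.9 and 291 CPM) and 1.39-fold lower (1.34 to 1.43, 807 and 582 CPM), lower in 6 of 6 clusters.

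Among growth factors and their carriers, 13 of 32 were higher and 4 lower, against 20.7% and 4.65% of all genes. Igfbp2, a carrier of insulin-like growth factors, went from 529.96 to 256, 2.07-fold lower (1.98 to 2.16), and was lower in 6 of 6 clusters. Igfbp5, another carrier, went from 226 to 559, 2.48-fold higher (2.36 to 2.6), in 5 of 6. Igfbp7 was 1.73-fold lower (1.62 to 1.85, 222 and 128 CPM), higher in 2 and lower in 4. The 3 carriers thus lay on different sides.

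The ligand Igf2 went from 198 to 425, 2.15-fold higher (2.04 to 2.27), in 6 of 6 clusters at log2 0.49 to 0.89. Of 14 imprinted genes, Igf2 among them, 9 were higher and 1 lower, against 20.7% and 4.65% of all genes, with a median log2 of 0.93. The cell cycle brake Cdkn1c went from 286 to 629, 2.2-fold higher (2.1 to 2.29), the zinc finger genes Plagl1 and Peg3 were 2.93-fold higher (2.7 to 3.19, 71.9 and 211 CPM) and 3.06-fold higher (2.76 to 3.4, 45.7 and 139.7 CPM), and Grb10, an adapter of the insulin receptor, 2.41-fold higher (2.21 to 2.63, 69.7 and 168 CPM). All were higher in 6 of 6 clusters. Dlk1 was 2.29-fold higher (2.14 to 2.45, 114 and 262 CPM), in 5 of 6. In other cells the imprinted genes had a median of 0.66, in the cells with Dcn and Lum 0.36 and in those with Kit and Ano1 0.28.

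Of 47 genes of gut patterning signals 17 were higher and 1 lower, against 20.7% and 4.65% of all genes. Gli2, a transcription factor of Hedgehog signalling, was 1.83-fold higher (1.51 to 2.21, 16.4 and 30.03 CPM) and the coreceptor Cdon 1.79-fold higher (1.53 to 2.1, 23.3 and 41.6 CPM), in 6 of 6 clusters, while the Hedgehog target Gli1 was 1.09-fold lower (0.879 to 1.34, 17.7 and 16.3 CPM), an interval that includes 1. The BMP receptors Bmpr1a and Bmpr2 were 2.12-fold higher (1.72 to 2.62, 12.7 and 26.8 CPM) and 1.72-fold higher (1.44 to 2.06, 19.1 and 32.9 CPM), also in 6 of 6. The BMP antagonist Grem1 went from 149.6 to 95.7, 1.56-fold lower (1.44 to 1.69), and was higher in 2 clusters and lower in 4. With the 6 clusters weighted equally its log2 ratio was 0.07, so its direction changes.

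Of 15 striated genes with at least 20 UMIs, 3 were higher and 6 lower, against 20.7% and 4.65% of all genes. Actc1, from 395 to 234, was lower in 5 of 6 clusters, and Tnnc1 was 1.37-fold lower (1.29 to 1.45, 273 and 199 CPM), lower in 5. Ckm was 1.99-fold lower (1.64 to 2.42), from 307 to 163 UMIs, and was higher in 2 clusters and lower in 4. Not every striated gene followed the scale upward. The troponin Tnnt1 was a leading gene of cluster S8, at 44.1 CPM against 1.73 in the other members. S8 had the lowest median of the rule genes among the clusters, 166 per 10000. Actc1, Tnnc1 and Ckm climb along the scale, and with its 4 ranges weighted equally the log2 ratio of Tnnc1 was 0.21 against -0.45 in all members. Its direction changes. So do those of Des (0.13) and Tacr2 (0.37).

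In energy metabolism, the brain-type creatine kinase Ckb went from 1616 to 850.1, 1.9-fold lower (1.85 to 1.95). Aldolase (Aldoa) was 1.4-fold lower (1.36 to 1.43, 1277 and 915 CPM), Pgam1 1.45-fold lower (1.39 to 1.5, 644 and 446 CPM) and Pfkl, the liver isoform of phosphofructokinase, 1.53-fold lower (1.41 to 1.65, 147 and 96.4 CPM). These 4 were lower in 6 of 6 clusters. Hk1, a hexokinase, was 1.86-fold higher (1.63 to 2.13, 32.8 and 61.1 CPM), in 6 of 6. Of 26 glycolysis and creatine genes 1 was higher and 4 lower, against 20.7% and 4.65% of all genes. Their median log2 was -0.21 in members and -0.37 in other cells. It was -0.21 in the cells with Dcn and Lum and -0.17 in those with Kit and Ano1. Oxidative phosphorylation had 1 higher and 0 lower of 32, against the same 20.7% and 4.65% of all genes, at a median log2 of -0.09.

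**Figure D5:**
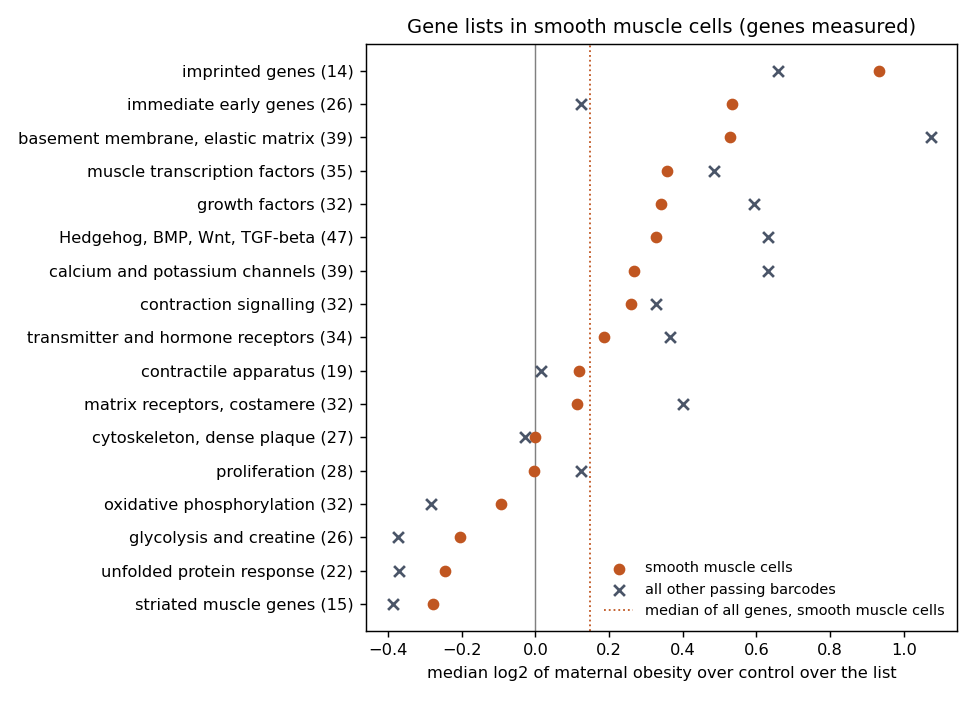
Medians, over the genes of 17 lists, of the log2 ratio between the maternal obesity and control libraries in members (filled points) and in all other cells that passed (crosses), from UMIs summed per library, 1 library a group, with the number of genes measured. The dotted line is the median of all genes in members, 0.15, and the matrix list lies above it at 0.53 with other cells at 1.07.

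Among genes outside the lists, Cyp1b1, a cytochrome P450, had 15 UMIs in control members and 317 in maternal obesity, 20.01-fold higher (11.9 to 36.2). Its level was 1.44 and 28.8, and it was higher in 5 of 6 clusters and present in 1.12% and 8.97% of member cells. In other cells it stood at 2.89 and 4.44. Aldh1a2, the retinaldehyde dehydrogenase, had 11 and 99 UMIs, 8.52-fold higher (4.56 to 17.6). The protease-activated receptor F2r went from 23.6 to 78.1, 3.3-fold higher (2.86 to 3.82), in 6 of 6 clusters, and Lbh, a transcription cofactor of limb and heart, was 5.47-fold higher (3.46 to 9.03, 2.11 and 11.6 CPM). Ccdc3 was 12-fold higher (6.1 to 26.9, 0.865 and 10.4 CPM), but its log2 ratio was 3.49 in other cells.

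Among the lower genes, Wfdc1 was 2.43-fold lower (2.24 to 2.64, 191 and 78.6 CPM), lower in 3 of 6 clusters. Crip2, a LIM protein, was 2.29-fold lower (2.1 to 2.49, 172 and 75.1 CPM) and the carbonic anhydrase Car2 2.86-fold lower (2.44 to 3.35, 56.1 and 19.7 CPM), both lower in 5. Nt5e, which makes adenosine, was 2.98-fold lower (2.38 to 3.75, 28.7 and 9.65 CPM), lower in 4. Hmgb3, a chromatin protein, was 2.47-fold lower (2.07 to 2.95, 41.1 and 16.7 CPM), in 6 of 6 clusters. In other cells Hmgb3 had a log2 ratio of -0.91. Further genes among the lowest were epithelial: Scgb1a1, Agr2, Krt19, Spink1, Fam3d and Lypd8. In other cells these stood at much higher levels, as for Agr2 with 2336 and 806 against 64.4 and 25.2 in members, and their log2 ratios there were between -3.10 and -1.23. The 7 epithelial genes of the rule summed to 185 and 142 CPM in members and to 8254 and 4503 in other cells, and 87.0% and 81.1% of members had UMIs of 1 to 3 of them. The part of free epithelial RNA was not tested.

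No proliferation gene lay past 1.5-fold. Of 28, 0 were higher and 0 lower, against 20.7% and 4.65% of all genes. Their median log2 was 0.00, against 0.15 over all genes, and the summed level was 3110.3 and 3053 CPM. Mki67 went from 189 to 229 and Top2a from 247 to 306, and with the 4 ranges weighted equally their log2 ratios were -0.26 and -0.14. With each cell thinned to 3000 UMIs, 485 of 812 control members (59.7%, 56.3 to 63.1) and 382 of 788 in maternal obesity (48.5%, 44.9 to 52.0) had UMIs of at least 3 of the genes. Shallower cells, 78 and 70, were left out. Unthinned the shares were 79.7% and 78.8%. The cells with Dcn and Lum gave 53.2% and 44.3% after thinning. Mki67 and Top2a were higher where the thinned share was lower, and no difference in cycling is read from these values.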

How the data were processed

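Single-cell RNA of fetal rat colon, in 1 control and 1 maternal obesity library, was counted with Cell Ranger. Its version was 2.1.1 per the submitters' processing notes and 6.1.2 per the file headers. No genome build is named. The deposited files hold raw UMI counts per gene and barcode, with no normalization. The libraries held 103013814 and 120811946 UMIs in 8903 and 9714 barcodes. Cells passing the limits were selected by the rule, and their counts were summed per library (Python 3.11.15, SciPy 1.17.1). Ratios carry exact conditional binomial 95% intervals and shares Clopper-Pearson ones, which cover counting error only. A gene was called at 1.5-fold with at least 100 UMIs (20 for list members). Median log2 ratios used 0.5 UMI added to both sums. Clusters came from scanpy 1.11.5 (2000 variable genes, 20 components, 15 neighbours, Leiden resolution 0.5). TMM factors came from edgeR 4.0.16, with no test. The counting script was tested on simulated data.

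Genes were named by rules: the rule genes and given markers, the 20 with the largest fold over other cells, the 15 highest and 15 lowest ratios by interval bound, the 5 most abundant and every called gene of a list, and the 10 with the largest climb or descent along the rule-gene scale. Only some of the genes these rules name are described, and some that meet them are not reported here. The members and lists were chosen with earlier results of these data known.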

Additional observations from a re-analysis of the deposited data

How the results depend on the processing

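The counts of genes past 1.5-fold depended on the scaling and the minimum. The 1561 higher genes became 1010 with TMM, 4445 with no minimum, 520 with a minimum of 500 UMIs and 647 after thinning. The 277 lower genes became 573, 1757, 103 and 178. The member share of 12.9% in control became 13.8% at a threshold of 50, 11.7% at 200, 14% with at least 1000 genes, 5.79% with fewer than 2 epithelial genes and 12% without clusters S0, S5 and S7. The share of 11.9% in maternal obesity became 14.2%, 9.20%, 13.0% and 6.66% under the first 4 of these, so the order of the libraries turns at 50 and with fewer than 2 epithelial genes. The proliferation shares became 71.1% and 63.7% with at least 2 genes, and 79.7% and 78.8% with no thinning. Grem1 changed direction, to a log2 ratio of 0.074, with the 6 clusters weighted equally; the cause was not tested. Of 113 genes checked that were past 1.5-fold with at least 20 UMIs, 112 kept their sign with the 4 ranges weighted equally and 112 with the 6 clusters weighted equally. Under the other 14 settings every such gene that was measured kept it. The settings without haemoglobin-rich barcodes, without S0, S5 and S7 and with the clusters weighted equally were chosen after seeing the data. No paired analysis was possible because each group has 1 library, with different numbers. With 1 library a group, no value here has a replicate error, and genes under 100 UMIs (20 for list members) were not called.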

Other observations

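Genes of the immediate early response, which tissue digestion can also induce, were higher in 11 of 26 cases and lower in 0, against 20.7% and 4.65% of all genes. Their median log2 was 0.53 in members and 0.12 in other cells. It was 0.27 in the cells with Dcn and Lum and 0.33 in those with Kit and Ano1. Egr1 was 1.87-fold higher (1.84 to 1.9, 1963 and 3673 CPM), Fosb 2.06-fold higher (1.94 to 2.19, 149 and 308 CPM), Klf6 3.14-fold higher (2.62 to 3.77, 15.1 and 47.3 CPM) and the matricellular gene Ccn1 2.05-fold higher (1.95 to 2.17, 189 and 388 CPM). Klf6 was higher in 6 of 6 clusters. The heat-shock gene Hspa8 was 1.68-fold higher (1.59 to 1.76, 225 and 377 CPM). The share of digestion in these levels was not tested.

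Of 22 genes of the unfolded protein and integrated stress responses 5 were lower and 2 higher, where 4.65% and 20.7% of all genes were. Creld2 was 1.71-fold lower (1.55 to 1.88, 109 and 63.6 CPM), Herpud1 1.58-fold lower (1.48 to 1.69, 226 and 143 CPM) and the disulphide isomerase Pdia4 1.57-fold lower (1.48 to 1.67, 256 and 163 CPM), while Asns, which makes asparagine and is a target of the integrated stress response, was 2.54-fold higher (2.11 to 3.07, 15 and 38 CPM). Sdf2l1, a chaperone cofactor, was 2.26-fold lower (2.02 to 2.54, 90.9 and 40.2 CPM), in 6 of 6 clusters. In lipid and insulin metabolism 5 of 32 were higher and 3 lower, against 20.7% and 4.65% of all genes. Txnip, which restrains glucose uptake, was 2.12-fold higher (1.94 to 2.31, 69.7 and 148 CPM), while the fatty acid carrier Fabp5 and the lipid droplet gene Plin2 were 1.54-fold lower (1.43 to 1.66, 163 and 106 CPM) and 1.69-fold lower (1.45 to 1.96, 43.3 and 25.7 CPM). Hypoxia genes numbered 3 higher and 3 lower of 24, inflammation genes 8 and 2 of 26, and cell cycle inhibitors 2 and 0 of 10. The shares over all genes, 20.7% and 4.65%, apply to these counts too.

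Markers of other cells in members, as summed CPM in control and maternal obesity, were 379 and 502 for Cajal cells, 331 and 383 for vascular muscle and pericytes, and 148 and 196 for neurons. They were 80.1 and 96.8 for subepithelial fibroblasts, 65 and 59 for immune cells and 56 and 20.8 for mesothelium. Glia gave 4.9 and 6.83, and endothelium 7.11 and 8.55. The glial gene Fabp7, the endothelial gene Emcn, the mesothelial gene Lrrn4 and the T cell gene Cd3e had 0 UMIs in both libraries. The part of these cells in the members' ratios was not tested.

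The Cajal gene Kit was 2.43-fold higher (2.17 to 2.72, 42.2 and 102 CPM) in members, and Ano1 went from 57.3 to 59.6. Within the clusters, Kit was higher in 4 and lower in 2.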
